A study of Mus musculus with 14 samples.

Results

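Chromatin regions that were less accessible in each memory phase than in Basal neurons were examined in mouse hippocampus. The assay was ATAC-seq: a transposase inserts sequencing tags where DNA is open, so more reads per base mean a more open region. Each library was first put on a common scale by dividing its RPKM values (reads scaled to region length and sequencing depth) by their median over all 191271 regions of the deposited table, and the result is called the level, with 1 for a median region. Members were then chosen by these levels. They are autosomal regions with a mean of at least 0.83 RPKM in which the highest of the 10 Early, Late and Reactivated levels is below the lowest of the 4 Basal levels. Of 168650 regions that met the criteria on chromosome and mean (the eligible regions), 5047 were members, or 2.99%. If the 14 libraries were exchangeable, the order required would be met by 168 regions by chance. That number takes no account of what libraries of one group share, such as their depth or preparation, and every difference of a member from Basal is what chose it. Values against Basal are therefore given below as a description, without a test.

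The nuclei came from mice carrying ArcCreERT2, a tamoxifen-dependent recombinase driven from the Arc locus, with the R26R eYFP reporter behind a floxed STOP. The labels add the genotype +/+ without saying to which allele it refers. Mice were given 4-hydroxytamoxifen shortly ahead of contextual fear conditioning, and the foot shock was on day 0. Arc is an activity-induced gene of neurons, so the reporter marks cells in which Arc was active near the time of the drug. Such sparse marked cells are often called memory-trace or engram neurons. Nuclei were stained for NeuN, Arc and GFP and sorted. The libraries labelled Basal (n = 4) and Early (n = 3) carry the same treatment, shock and collection on day 0 without recall, and are told apart by their titles. What sets the Basal nuclei apart, a sorted population or a handling, is not stated, so a level below Basal cannot be read as a change with time. The Late libraries (n = 4) were collected on day 5 without recall, and the Reactivated libraries (n = 3) had recall on day 5, with collection labelled day 5, 6 and 7 for replicates 1, 2 and 3. In the Reactivated group the day and the replicate cannot be told apart. The series' design text speaks of 10 to 12 mice pooled to reach 10000 nuclei and of 3 biological replicates. Which mice went into which library is not stated, so p-values reflect library-to-library spread, which may be technical.

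Open regions of neurons are of several kinds. Promoters of active genes are open in most cell types and tend to form broad regions, while enhancers, which hold binding sites of transcription factors away from promoters, tend to be narrower and to differ more between cell types and states. Neuronal activity is known to change accessibility mainly at enhancers bound by activity-induced factors. The deposited table names no genes, and an annotation or sequence of its mm9 build was not used here, so members are named by position and no gene or sequence is given for them. The labelled cell type could for the same reason not be checked against marker genes.

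The Late libraries held 46134253 to 47375212 reads, as worked back from RPKM and region width, against 54257222 to 56251676 in all others. A typical member held a median of 42 to 48 reads in the Basal libraries, against 25 to 29 (Early), 20 to 23 (Late) and 26 to 33 (Reactivated). Of the members, 120 (2.38%) stood at 1 read in at least 1 library. Counting error is therefore large for a single narrow member and small for the medians over members.

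Averaged over libraries, the median level of the members was 1.78 ± 0.0639 for Basal (SD over library medians, n = 4). It was 0.894 ± 0.182 for Early (n = 3), 0.774 ± 0.0330 for Late (n = 4) and 0.857 ± 0.0557 for Reactivated (n = 3). In Basal the 4 library medians were 1.74, 1.75, 1.87 and 1.74 for replicates 1 to 4. Those of Early were 1.03, 0.687 and 0.962, those of Late 0.763, 0.805, 0.732 and 0.794, and those of Reactivated 0.921, 0.83 and 0.820. That every Basal median lies above every other follows from the choice of members. Members thus stood well above the typical region in Basal, at 1.60 to 1.74 times the median of the eligible regions of the same library. Outside Basal they were below the typical region, at 0.642 to 0.968 times that median. Late had the lowest mean of the 3 phases in 2497 members (49.5%, against 34.0% of eligible regions). Reactivated had it in 1348 (26.7%, against 32.1%) and Early in 1202 (23.8%, against 33.9%). The criteria cap each group by its highest library, which bears unequally on groups of 3 and 4 libraries and of unlike spread. These shares are therefore a description. A sorted bulk library cannot tell fewer nuclei with an open region from less opening in each nucleus.

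**Figure D1:**
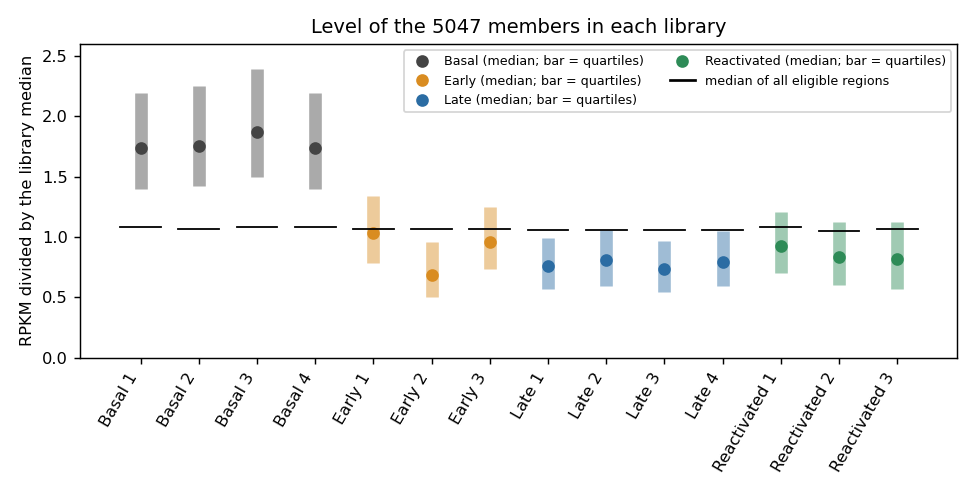
Level (RPKM divided by the library median) of the 5047 members in each of the 14 libraries, with the median as a point and the quartiles as a bar; the short black lines give the median of all eligible regions. The Basal medians of 1.74 to 1.87 lie above the black lines, and Early replicate 2 has the lowest median of all, 0.687.

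The scale matters for this class. On the RPKM values as deposited, 1106 of the 5047 members (21.9%) still had no overlap with Basal, and the same criteria applied there gave 1225 regions. Median RPKM over all regions was 0.910 to 1.18 in the Basal libraries. It was 1.00 in Early replicate 1 and above every Basal value, at 1.22 to 1.71, in the other 9 libraries, so dividing by it lowers these relative to Basal. The median RPKM of members itself was 1.70 to 2.06 in the Basal libraries and 0.994 to 1.33 in the others. These medians of deposited values did not overlap between Basal and the other groups, although most single members' values did. The number of members also depended on single libraries. Early replicate 1 held the highest of the 10 other values in 1488 members (29.5%), and without it 10240 regions met the criteria. Without Basal replicate 1 the number was 7657.

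The share of reads that fell inside regions also differed between groups. For Basal, Early, Late and Reactivated it was 15.7% ± 2.71, 19.9% ± 7.15, 19.2% ± 0.653 and 23.1% ± 1.54 (SD; n = 4, 3, 4 and 3). Early replicate 2 had the highest share of all libraries, 27.8%, and the lowest median level of members, and Basal replicate 3 had the lowest share, 13.2%, and the highest median. Within Early a higher share went with a lower median. The values were 13.8% and 1.03 (replicate 1), 18.1% and 0.962 (replicate 3) and 27.8% and 0.687 (replicate 2). Basal replicate 1 had the highest Basal share, 19.3%, and a median of 1.74, level with the lowest in Basal. Late was mixed. Its replicate 3 had the highest share and the lowest median, 0.732, but replicate 1, with the lowest share, 18.4%, had the next lowest median, 0.763. Reactivated did not follow that order. It had a higher share than Late and also a higher median of members. Within Reactivated, replicate 1 had the highest share, 24.0%, and the highest median, 0.921. The part of this share in the members' levels was not tested, and a comparison of Basal with other libraries at a like share would be fixed by the choice of members.

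Most members lay close to the boundary. The lowest Basal level was a median of 1.11 times the highest other level, with a 5th to 95th percentile of 1.01 to 1.49. It was under 1.05 times that level in 1308 members (25.9%), at least 1.5 times in 234 (4.64%) and at least 2 times in 13. Just inside stood chr13:11640848-11641519, chr12:30884160-30886777 and chr5:114357919-114359299, with ratios of 1.00004 to 1.00021. Just outside stood chr2:181327016-181328086, chr1:165503435-165503785 and chr1:129138629-129138797, with 0.999919 to 0.999924. A further 1801 eligible regions had a ratio from 0.95 to 1. Group means differed by more than this margin: the ratio of a phase's mean to the Basal mean had a median of 0.511 in Early, 0.437 in Late and 0.490 in Reactivated, against 1.00, 0.981 and 1.06 over all eligible regions. In 1457 members (28.9%) all 3 phase means were at or below 0.5 of Basal, and in 5 members at or below 0.25. The mean minimum of 0.83 RPKM was met with the help of the high Basal values by 673 members, whose mean over the other 10 libraries was lower than that.

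Each phase alone must have at least as many regions below Basal as all phases together. Of the eligible regions, 19354 had every Early level below every Basal level (11.5%), 29254 every Late level (17.3%) and 23793 every Reactivated level (14.1%). The members are the regions that these sets have in common and make up 26.1%, 17.3% and 21.2% of them. These sets share the Basal libraries. Late has 4 libraries and Early and Reactivated have 3 each, so chance would not meet the 3 orders equally often. The 3 shares are therefore not directly comparable. The opposite class, in which all 10 other levels lay above all Basal levels, held 8754 eligible regions, or 5.19%.

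The members with the widest separation were narrow to middling in width. At chr8:110765102-110765240, 138 bases wide, the levels were 2.48, 2.89, 2.93 and 3.52 in Basal, 0.665, 0.936 and 0.985 in Early, 0.719, 0.234, 0.967 and 0.900 in Late and 0.534, 0.794 and 0.647 in Reactivated. The lowest Basal level was 2.52 times the highest other level, and the region rests on 20 to 28 reads per library in Basal and 2 to 12 elsewhere. The phase means there were 0.292, 0.239 and 0.223 of the Basal mean.

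Of the 6 members with the widest separation, 3 lie on chromosome 7. In 5 of the 6, chr8:110765102-110765240 being the other, the mean over the 10 libraries outside Basal was 0.628 to 0.819 RPKM, so they met the mean minimum through their Basal values. At chr7:53058049-53058399 the mean levels of Basal, Early, Late and Reactivated were 2.07 ± 0.161, 0.508 ± 0.252, 0.551 ± 0.166 and 0.388 ± 0.133 (SD; n = 4, 3, 4 and 3). On the same chromosome, chr7:52263514-52263693 stood at 2.76 ± 0.602, 0.743 ± 0.233, 0.325 ± 0.190 and 0.524 ± 0.207 in the same order. At chr7:133921116-133921518 Early was the lowest phase, with 2.10 ± 0.341 in Basal, 0.388 ± 0.0552 in Early, 0.464 ± 0.195 in Late and 0.646 ± 0.158 in Reactivated. The other 2, chr13:73288297-73288546 and chr5:137951143-137951626, had 2.08 ± 0.387 and 1.87 ± 0.342 in Basal. Their means in the phases were 0.369 to 0.640. None of these 6 passed the threshold between the phases themselves (limma, adjusted p of 0.167 to 0.986 in the comparisons described further on).

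The members with the highest Basal level were of another kind. At chr17:39979978-39985726, the widest member with 5748 bases, the levels were 76.5, 78.1, 98.6 and 81.8 in Basal, 29.9, 19.6 and 30.9 in Early, 11.5, 10.2, 10.9 and 10.3 in Late and 69.1, 64.8 and 62.4 in Reactivated. On this scale the Reactivated mean was 0.782 of the Basal mean and the Late mean 0.128 of it. On the RPKM as deposited the Reactivated mean was above Basal there, at 92.5 ± 6.71 (SD, n = 3) against 85.8 ± 6.83 (n = 4), so its direction against Basal turns with the scaling. The same order of levels held at chr11:108872960-108873401, where the mean levels of Basal, Early, Late and Reactivated were 37.6 ± 4.63, 12.1 ± 2.96, 7.62 ± 0.480 and 28.3 ± 0.829 (SD; n = 4, 3, 4 and 3). Here too the deposited RPKM put Reactivated above Basal, at 40.0 ± 2.78 against 38.4 ± 1.55. The order held as well at chr5:147072568-147072940, with 22.2 ± 4.03, 7.28 ± 1.27, 5.80 ± 0.933 and 15.2 ± 1.48. Whether these regions hold repeated sequence, at which reads of many copies can pile up, was not checked, as no mm9 annotation was used. How duplicate reads were treated is not stated, and this treatment sets the number of reads at such dense regions. The part of either in these values was not tested. Of the 980 eligible regions among the 1000 with the highest mean Basal level, 36 were members (3.67%, against 2.99% of all eligible regions). This ranking uses Basal values, which also chose the members.

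**Figure D2:**
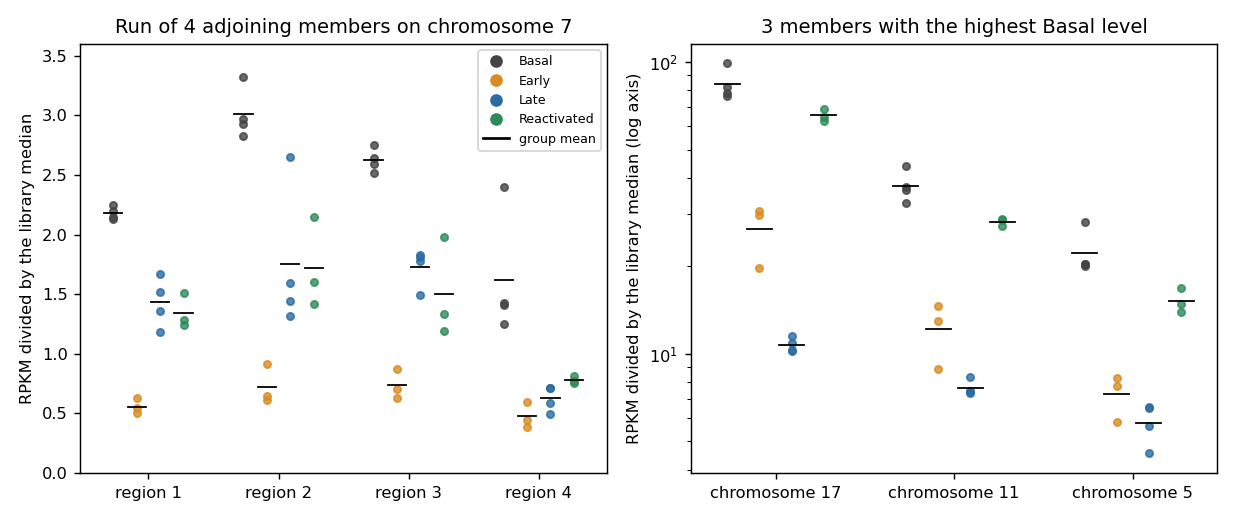
Level in each library (points) and group mean (black lines) of the run of 4 adjoining members on chromosome 7 (left, linear axis) and of the 3 members with the highest Basal level (right, logarithmic axis). On the left Early is the lowest group in each region, with means of 0.474 to 0.735; on the right Late is the lowest, with means of 5.80 to 10.7, and Reactivated is nearest to Basal.

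Chromosome 7 held the highest share of members. Of its 3422 eligible regions 275 were members, or 8.04%, followed by chromosome 17 with 217 of 3477 (6.24%) and chromosome 15 with 295 of 7660 (3.85%). The remaining autosomes lay between 1.61% on chromosome 9 (116 of 7188) and 3.18% on chromosome 3 (460 of 14455). The opposite class mirrored this in part, with 27 eligible regions (0.789%) on chromosome 7 and 466 (6.48%) on chromosome 9. Across the 19 autosomes the shares of the classes had Pearson r = -0.890 and Spearman rho = -0.802, given as a description because both come from the same libraries. In the first 55 Mb of chromosome 7 the share was 14.5% (95 of 653 eligible regions), against 6.50% (180 of 2769) in the rest of it. On chromosome 17 it was highest from 20 to 50 Mb, at 10.3% to 12.0% per 10 Mb, and 1.89% from 90 Mb on.

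**Figure D3:**
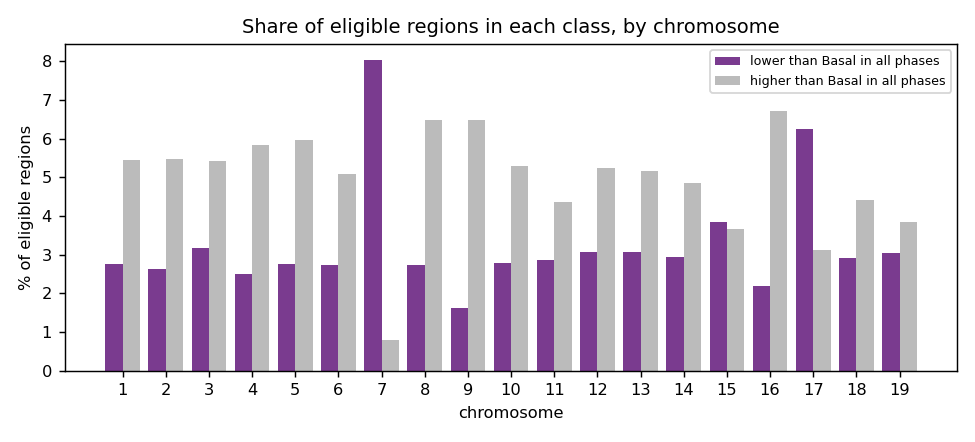
Share of each autosome's eligible regions that lay below Basal in all phases (dark bars) or above it in all phases (grey bars), in percent. Chromosomes 7 and 17 stand out in the dark bars, at 8.04% and 6.24%, and chromosome 7 has the lowest grey bar, 0.789%.

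Members on chromosome 7 also had a different order of phases, which all tested regions of that chromosome shared. Their median level was 0.689, 0.587 and 0.752 for Early replicates 1, 2 and 3 against 0.740 to 0.866 for Late. Early replicate 3 thus lay inside the Late range. Members outside chromosomes 7 and 17 followed the order of the whole class, with Late lowest by group mean. Among those members Early replicate 2, at 0.7, still lay below every Late library (0.731 to 0.8). Early replicates 1 and 3 stood at 1.07 and 0.984. The ratio of phase to Basal had a median of 0.384 in Early, 0.470 in Late and 0.568 in Reactivated for members on chromosome 7, and of 0.437, 0.464 and 0.569 on chromosome 17. On chromosome 9 it was 0.517, 0.476 and 0.507. In the limma fit described further on, the median log2 fold change of Late against Early was 0.155 over the members of chromosome 7 and 0.239 over all its tested regions, and that of Reactivated against Early 0.333 and 0.393. On chromosome 17 the same pairs of values were 0.00828 and 0.163, and 0.254 and 0.266. Chromosome 7 is thinly covered by the table, with 22.4 eligible regions per Mb up to its last region, against 36.5 on chromosome 17 and 50.0 to 91.3 on the other autosomes. It also has the most protein-coding genes of all autosomes in the RefSeq table of the GRCm38.p6 assembly, 2030, or 59.3 per 100 eligible regions. Across the 19 autosomes the member share and this gene density had Pearson r = 0.833, but Spearman rho = -0.0360, and without chromosomes 7 and 17 r was -0.304. The relation therefore rests on these 2 chromosomes.

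Whether members clustered beyond the spacing of the eligible regions was not tested. The windows of 1 Mb with the most members were chromosome 10 from 80000001 to 81000000 (21 of 109 eligible regions, 19.3%), chromosome 10 from 79000001 to 80000000 (17 of 100) and chromosome 17 from 56000001 to 57000000 (17 of 118). None of the eligible regions in these 3 windows belonged to the opposite class. Of all members, 671 (13.3%) had another member within 10000 bases and 1969 (39.0%) within 50000 bases. Members also lay nearer to any region of the table, with 27.2% within 1000 bases of one against 18.4% of eligible regions. As neighbours in the table, 244 pairs, 18 runs of 3 and 3 runs of 4 were formed, and 4493 members stood without an adjoining one.

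The 3 runs of 4 differed in the order of the phase means. On chromosome 7, from 13608892 to 13629926, Early was lowest in each region. At chr7:13608892-13610577 the levels were 2.15, 2.13, 2.20 and 2.25 in Basal, 0.501, 0.543 and 0.628 in Early, 1.52, 1.67, 1.18 and 1.36 in Late and 1.28, 1.24 and 1.51 in Reactivated. Late and Reactivated overlapped each other and lay between Early and Basal. The adjoining chr7:13619620-13620539 and chr7:13623183-13624463 showed the same order, with Early at 0.240 and 0.280 of Basal and Late at 0.581 and 0.659. At chr7:13628663-13629926 the Early ratio was 0.292 and the Late ratio 0.386.

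On chromosome 15, from 74393814 to 74406361, the Late mean was lowest in each region. At chr15:74396874-74397801 the mean levels of Basal, Early, Late and Reactivated were 8.55 ± 0.426, 4.79 ± 2.15, 3.20 ± 0.294 and 5.19 ± 0.507 (SD; n = 4, 3, 4 and 3). In Early, replicate 2 stood at 2.31 there and the other libraries at 6.02 and 6.05. The other 3 regions of this run, chr15:74393814-74396349, chr15:74404424-74405419 and chr15:74406174-74406361, had Basal means of 6.01 to 10.3 and Late means of 3.13 to 3.25. In each of the 4, Early replicate 2 was the lowest Early library and lay below every Late library. None of them passed the threshold in Late against Early (limma, adjusted p of 0.33 to 0.989).

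On chromosome 17, from 56251392 to 56280011, the phases had no common order. At chr17:56278866-56280011 the levels were even within groups, 1.60 ± 0.0430 in Basal, 0.960 ± 0.195 in Early, 0.869 ± 0.0522 in Late and 1.14 ± 0.0330 in Reactivated (SD; n = 4, 3, 4 and 3). At chr17:56263428-56263654, 226 bases wide, they were uneven, 3.44 ± 0.692, 1.21 ± 0.867, 0.634 ± 0.373 and 1.11 ± 0.374. The remaining 2, chr17:56251392-56252110 and chr17:56259676-56260536, had Basal means of 1.54 and 1.47 and phase means of 0.550 to 0.989.

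Regions near members leaned the same way without being members. Among the 1277 eligible non-members less than 1000 bases from a member, the median ratio of phase to Basal was 0.813 in Early, 0.812 in Late and 0.956 in Reactivated, and 44.8% had all 3 phase means below Basal. The ratios rose with distance, through 0.928, 0.906 and 1.02 at 10000 to 50000 bases, to 1.23, 1.22 and 1.19 for the 12707 non-members at 1000000 bases or more, of which 19.1% had all 3 means below Basal. Without chromosomes 7 and 17 the values under 1000 bases were 0.831, 0.819 and 0.959 and those at 1000000 bases or more 1.24, 1.22 and 1.18. Below 10000 bases the Reactivated ratio stayed closest to 1 of the 3 phases. Distances to members follow from the criteria, so no test is attached.

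**Figure D4:**
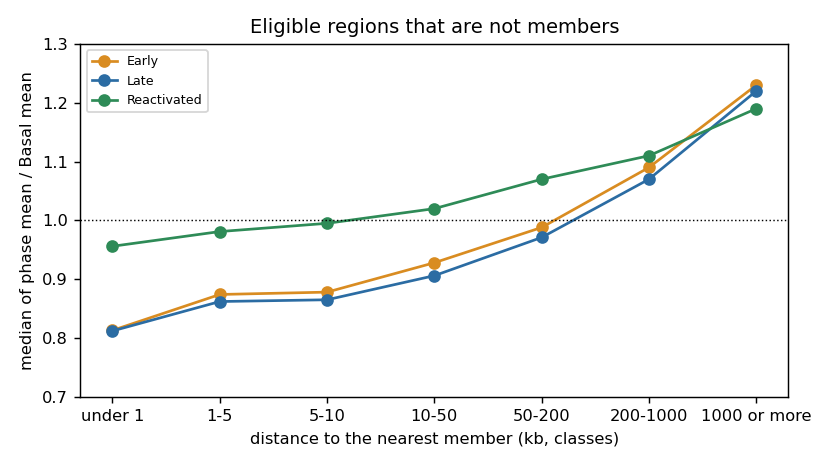
Median ratio of phase mean to Basal mean in eligible regions that are not members, by distance to the nearest member in classes of kilobases. All 3 lines rise with distance, from 0.813, 0.812 and 0.956 under 1 kb to 1.23, 1.22 and 1.19 at 1000 kb or more.

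Members were more frequent at both ends of width, which the criteria did not use, although most widths overlapped with those of other regions. Members were a median of 464 bases wide, with quartiles of 277 and 856, and eligible regions 529, with quartiles of 324 and 854. The share of members was 5.16% among eligible regions under 150 bases (191 of 3699), was 2.23% from 800 to under 1200 bases (639 of 28703) and was 7.46% at 2000 bases or more (186 of 2493). Without chromosomes 7 and 17 the corresponding shares were 5.08%, 1.99% and 6.88%. All eligible regions also stood lower against Basal at both ends. Their median ratios in Early, Late and Reactivated were 0.783, 0.565 and 0.669 under 150 bases. From 800 to under 1200 bases they were 1.04, 1.04 and 1.16, and at 2000 bases or more 0.867, 0.778 and 1.02. The narrow end has the larger counting error, since members under 150 bases had a median of 21 reads in Basal and 9 elsewhere, against 246 and 187 for those of 2000 bases or more. The opposite class was rare at the narrow end (0.676%) and most frequent from 800 to under 1200 bases (7.84%). By mean RPKM the share of members was 2.50% in the lowest decile of eligible regions, 3.56% in the fourth and 1.54% in the highest.

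**Figure D5:**
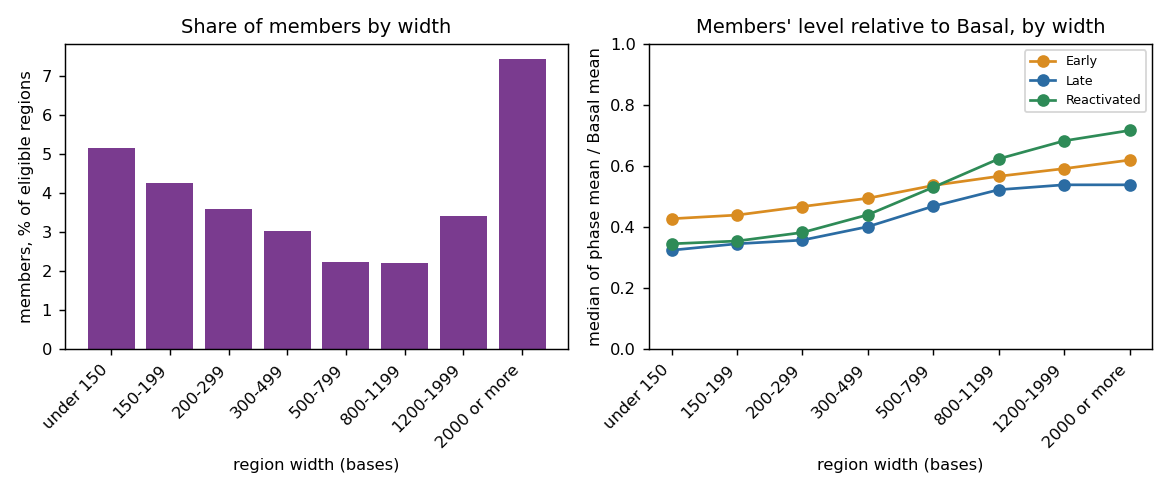
Left, share of eligible regions that are members, by region width in bases; right, median ratio of phase mean to Basal mean in members of each width, with 1 line per phase. The share is highest at both ends, 5.16% and 7.46%, and the Reactivated line crosses from 0.346, below Early, to 0.717, above it.

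Narrow and wide members differed in their phases. In members under 200 bases the library medians of Reactivated were 0.998, 0.832 and 0.805. They lay below the 1.36 and 1.22 of Early replicates 1 and 3 but above the 0.784 of Early replicate 2. In members of 1200 bases or more the Reactivated medians were 1.15, 1.14 and 1.17, above all Early medians (1.01, 0.868 and 1.04) and all Late medians (0.877 to 0.980). The ratio to Basal went from 0.346 in Reactivated and 0.428 in Early under 150 bases to 0.717 and 0.620 at 2000 bases or more. In Late it went from 0.325 to 0.539. All eligible regions showed a similar tilt, with Reactivated to Basal at 0.669 under 150 bases and 1.02 at 2000 bases or more, so it is not shown to be particular to the members. The widest members after the one on chromosome 17 were chr8:86520210-86523778, with mean levels of 1.48 ± 0.153, 0.640 ± 0.0926, 0.680 ± 0.0914 and 0.994 ± 0.101 for Basal, Early, Late and Reactivated (SD; n = 4, 3, 4 and 3), and chr19:48279452-48282803, with 1.52 ± 0.163, 1.19 ± 0.125, 0.931 ± 0.0789 and 1.18 ± 0.0639.

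Differences between Early, Late and Reactivated were not what the members were chosen for, but the criteria cap all 10 of these levels, so the members' counts and shares are a description and not independent of the choice. The comparisons were made with limma across 172144 regions in a fit of all 14 libraries, in which Basal contributes to the estimate of the spread, on log2(level + 0.5), with Benjamini-Hochberg adjustment and a threshold of 0.05; the constant makes fold changes of low regions smaller than they are. All 5047 members were among the regions tested. In Late against Early 10 members were higher (0.198%, against 0.434% of all regions) and 29 lower (0.575%, against 0.235%), 0.773% in all against 0.669%. In Reactivated against Early 75 were higher (1.49%, against 2.32%) and 38 lower (0.753%, against 0.945%), 2.24% in all against 3.26%. In Reactivated against Late 29 were higher (0.575%, against 0.695%) and 4 lower (0.0793%, against 0.366%), 0.654% in all against 1.06%. The median log2 fold change of members was -0.14, -0.02 and 0.12 in this order, beside -0.03, 0.01 and 0.04 over all regions tested, and a member's median standard error was 0.19 to 0.20.

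These counts depended on single libraries and on which groups entered the fit, as did those over all regions tested. In Late against Early, Reactivated against Early and Reactivated against Late, 0.669%, 3.26% and 1.06% of all regions were called. These shares became 0.0593%, 0% and 3.78% with the compared groups alone, and 4.7%, 9.9% and 1.77% without Early replicate 2. The dependence is therefore not shown to be particular to the members. With the compared groups alone limma called 0, 0 and 86 members in Late against Early, Reactivated against Early and Reactivated against Late, with 755, 570 and 746 at an unadjusted p under 0.05. For Late against Early, 39 in all, member calls were 245, 24 and 4 without Early replicates 2, 1 and 3. Of all regions these fits called 4.7%, 0.686% and 0.097%. Member calls were 10, 2, 9 and 2 without Late replicates 1 to 4 (0.226%, 0.0656%, 0.177% and 0.0767% of all regions). They were 25 without Basal replicate 4 (0.457%) and 25 without Reactivated replicate 3 (0.418%). For Reactivated against Early, 113 in all, member calls were 350, 5 and 31 without Early replicates 2, 1 and 3. Of all regions these fits called 9.9%, 0.0866% and 0.833%. Member calls were 4, 56 and 24 without Reactivated replicates 1 to 3 (0.0802%, 1.68% and 1.14% of all regions). They were 75, 72, 68 and 69 without Late replicates 1 to 4 (2.22%, 2.15%, 2.07% and 2.04%). For Reactivated against Late, 33 in all, member calls were 59, 56 and 14 without Early replicates 1, 2 and 3. Of all regions these fits called 2.15%, 1.77% and 0.616%. Member calls were 3 to 6 without 1 of the Reactivated libraries (0.0651% to 0.114% of all regions). They were 4 to 7 without 1 of the Late libraries (0.129% to 0.165%). Without Basal replicates 2 and 4 they were 18 and 14 (0.759% and 0.565%). The split by direction depended on the scale as well. Deposited RPKM gave 5 members above Early and 4 below it in Late, beside 534 and 178 of all regions tested. In Reactivated against Late it gave 3 members higher and 0 lower, beside 44 and 353 of all regions. Under quantile normalization that comparison gave 4 and 4 members, beside 100 and 579 of all regions. With the Late libraries averaged to 1 sample, the members' median log2 fold changes were -0.122, -0.0226 and 0.0978 in the order given above. A single Late sample has no spread of its own, so calls from that fit are not given.

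Of the 10 members higher in Late than in Early, 6 were on chromosome 7. Of all regions higher in Late that chromosome held 28.5% (213 of 747), and 6.22% of its tested regions were called higher, against 2.18% of its members. The largest difference was at chr5:148187964-148188288, with 0.396, 0.531 and 0.326 in Early and 1.58, 1.54, 0.869 and 1.58 in Late (log2 fold change 1.03 ± 0.20 SE, limma adjusted p = 0.0284). Early and Late did not overlap, and Reactivated stood at 1.63, 1.06 and 0.866. At chr7:6106780-6108277 the mean level was 0.767 ± 0.111 in Early (SD, n = 3) and 1.84 ± 0.145 in Late (n = 4; log2 fold change 0.89 ± 0.15 SE, limma adjusted p = 0.0150), near the Basal mean of 2.20 ± 0.147. The run on chromosome 7 described above contributed 3 of its 4 regions. At chr7:13608892-13610577 the log2 fold change of Late against Early was 0.87 ± 0.14 SE (limma adjusted p = 0.0150) and that of Reactivated against Early 0.80 ± 0.15 SE (adjusted p = 0.0186), while Reactivated and Late differed by -0.06 ± 0.14 SE (adjusted p = 0.878). At chr17:34259221-34259824 the levels were 3.97, 3.62, 3.43 and 3.45 in Basal, 0.791, 0.750 and 0.902 in Early, 1.81, 2.35, 1.97 and 1.73 in Late and 2.81, 2.61 and 2.33 in Reactivated. Early lay below all other libraries, and Late and Reactivated overlapped slightly, at 2.35 and 2.33. Against Early the log2 fold changes were 0.90 ± 0.14 SE in Late (limma adjusted p = 0.0111) and 1.23 ± 0.15 SE in Reactivated (adjusted p = 0.00684).

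The 29 members lower in Late than in Early were narrower, with a median width of 336 bases against 966 in the 10 higher ones, and rested on fewer reads, a median of 39 per library against 105. Of all regions tested, 0.45% were called lower under 200 bases and 0.25% from 200 to under 500. The share was 0.0818% from 500 to under 1200 bases and 0.609% at 1200 or more. Called higher were 0.278% to 0.458% in these classes. At chr2:170458551-170458861 the levels were 1.60, 0.972 and 1.56 in Early and 0.587, 0.208, 0.239 and 0.250 in Late (log2 fold change -1.20 ± 0.21 SE, limma adjusted p = 0.0171). At chr3:19248958-19249072, 114 bases wide with 4 to 18 reads per library outside Basal, they were 2.74, 1.51 and 2.39 in Early and 1.02, 0.707, 0.780 and 0.545 in Late (log2 fold change -1.09 ± 0.21 SE, limma adjusted p = 0.0274). The very high chr17:39979978-39985726 had the largest difference (log2 fold change -1.26 ± 0.20 SE, limma adjusted p = 0.0128), but under quantile normalization it stood at 0.93.

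Of the 75 members higher in Reactivated than in Early, 27 lay on chromosome 7 and 10 on chromosome 17. All tested regions of these chromosomes leaned the same way: 14.2% of those on chromosome 7 and 7.15% on chromosome 17 were called higher, against 9.82% and 4.61% of their members, so the concentration is not shown to be particular to the members. Those 75 had a median width of 1014 bases. The 38 lower ones had a median width of 226 bases and a median of 18 reads per library. All regions tested had a like tilt: 5.5% at 1200 bases or more and 0.961% under 200 bases were called higher. Called lower were 0.0677% and 2.26% in the same order. The largest rises were at the high regions, chr17:39979978-39985726 with a log2 fold change of 1.30 ± 0.21 SE (limma adjusted p = 0.0125) and chr11:108872960-108873401 with 1.22 ± 0.20 SE (adjusted p = 0.0123), beside chr17:34259221-34259824 given above. The falls were led by chr3:131070483-131070605, with 2.26, 2.03 and 1.98 in Early and 1.31, 0.562 and 0.105 in Reactivated (log2 fold change -1.30 ± 0.31 SE, limma adjusted p = 0.0348), where the last value is a single read. At chr5:87083852-87083988 the levels were 1.75, 1.82 and 1.33 in Early and 0.361, 0.302 and 0.469 in Reactivated (log2 fold change -1.28 ± 0.23 SE, limma adjusted p = 0.0157). At chr5:44819255-44819359, 104 bases wide, the change was -1.26 ± 0.30 SE (limma adjusted p = 0.0348).

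Reactivated and Late differ in the labels by recall and also by collection day, which is 5 for Late and 5, 6 and 7 for Reactivated, and these cannot be told apart. Of all regions tested, 3.94% at 1200 bases or more were called higher in Reactivated, against 0.195% under 200 bases. The width of the members called is therefore not shown to be particular to them. The 29 members that were higher in Reactivated were wide, with a median of 1412 bases, and lay on 16 chromosomes. They were led by the 3 members with the highest Basal level, chr17:39979978-39985726 (log2 fold change 2.55 ± 0.20 SE, limma adjusted p = 7.79e-06), chr11:108872960-108873401 (1.83 ± 0.19 SE, adjusted p = 0.000243) and chr5:147072568-147072940 (1.32 ± 0.19 SE, adjusted p = 0.00532). Under quantile normalization the first stood at -0.64 and the second at -0.47. The 4 members lower in Reactivated were 136 to 519 bases wide. At chr5:87083852-87083988 the levels were 1.46, 0.711, 1.74 and 1.37 in Late and 0.361, 0.302 and 0.469 in Reactivated (log2 fold change -1.02 ± 0.22 SE, limma adjusted p = 0.0352). At chr12:7474695-7474853 and chr11:49429015-49429234 the log2 fold changes were -0.90 ± 0.21 SE and -0.86 ± 0.18 SE (limma adjusted p = 0.0464 and 0.0301).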

How the data were processed

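The authors deposited 1 table of RPKM values for 191271 regions in 14 libraries, in 4 groups by title. Per the submitters' processing notes the genome was mm9, and the tools listed, without role or order, include MACS2, Bowtie2 2.0, DESeq2, DiffBind and SAMtools; peak calling, duplicate removal and cut-site shifting are not given in the sources used here. Coordinates are the table's own. Multiplying RPKM by width gave whole reads in each library within 0.01 (100% of values); these recovered reads and totals serve for description.

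Each column was divided by its median. Phase comparisons used log2(level + 0.5) without the 10% of regions of lowest mean RPKM, in 1 limma fit of group means over all 14 libraries (limma 3.58.1, R 4.3.3, trend and robust, 2-sided). The fit and the rule were run on simulated data as a check of the code. Beyond the planted changes, those data had no variation shared by libraries of a group. They therefore do not show how often the rule is met by chance here. Other steps used Python 3.11.15, pandas 2.3.3, numpy 2.4.6, scipy 1.17.1 and matplotlib 3.10.9. Named positions are the 6 members of widest separation, the 3 of highest Basal level, the 3 widest, 3 either side of the threshold, the longest runs, the 3 fullest 1 Mb windows and the 3 largest called log2 fold changes each way per phase comparison. Chromosomes and width classes singled out were chosen after values were seen. The members and lists were chosen with earlier results of these data known. Alternatives were other scalings, pseudocounts, filters, sample sets, covariates and leaving out each library.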

Additional observations from a re-analysis of the deposited data

Results flagged for a closer look

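In groups of 4 libraries, a library was marked where its gap to the nearest other divided by the group's range exceeded Dixon's 95% critical value, which chance exceeds in about 1 group in 20; 8 of 68 groups examined were marked, many of them sharing libraries. Basal replicate 3 stood apart in the median level of the members, 1.87, and at chr5:147072568-147072940 with 28.2, chr17:56259676-56260536 with 2.07 and chr7:13628663-13629926 with 2.40, above the other Basal libraries each time. Late replicate 3 stood apart at chr11:108872960-108873401 with 8.33, above the other Late libraries, and at chr7:13623183-13624463 with 1.49 and chr5:148187964-148188288 with 0.869, below them. Late replicate 1 stood apart at chr2:170458551-170458861 with 0.587, above the rest.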

How the results depend on the processing

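The number of regions that met the criteria, 5047, was 1225 on deposited RPKM and 1127 with the mean minimum at 2 times the value, where fewer regions were eligible. It stayed within 1.5 times for median-of-ratios scaling (5314, of which 4868 were shared), quantile normalization (4514, with 4176 shared), the autosomal median, no mean minimum, all chromosomes and averaged Late libraries. Leaving out 1 library gave 5125 to 10240, a number that can only grow under this criterion. On deposited RPKM limma called 9 members in Late against Early, 40 in Reactivated against Early and 3 in Reactivated against Late. Quantile normalization gave 111, 74 and 8. Of all regions tested, deposited RPKM called 0.414%, 1.36% and 0.231%, and quantile normalization 2.21%, 2.43% and 0.394%. With only the groups compared in the fit, 0, 0 and 86 members were called (755 and 570 at an unadjusted p under 0.05 in the first pair). Of all regions, 0.0593%, 0% and 3.78% were called there. Adding each library's in-region read share as a covariate gave 179 members in Late against Early, beside 3.87% of all regions. With Late averaged to 1 sample the members' median log2 fold changes were -0.122, -0.0226 and 0.0978 in the 3 comparisons. Leaving out 1 library gave 2 to 245, 4 to 350 and 3 to 59 members. Of all regions tested, 0.0656% to 4.7%, 0.0802% to 9.9% and 0.0651% to 2.15% were called.

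Replicate numbers were not taken to pair libraries across groups: none of 19 pairs had a correlation of deviations from the group mean above 0.1 (range -0.264 to 0.0625). With the replicate number as a block, limma called 0 members in Late against Early (753 at an unadjusted p under 0.05), 16 in Reactivated against Early and 2 in Reactivated against Late. Of all regions tested it called 0.068%, 0.586% and 0.0749%.

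The members' median log2 fold change in Reactivated against Early, -0.0226, turned to 0.0783 on deposited RPKM, 0.0412 with the covariate, 0.0381 without Early replicate 1 and 0.00428 without Early replicate 3; without single libraries it ranged from -0.119 (Early replicate 2) to 0.0381. Under quantile normalization chr17:39979978-39985726 turned to 0.93 in Late against Early and -0.64 in Reactivated against Late, and chr11:108872960-108873401 to -0.47 in the latter; this scaling keeps ranks alone. The named rule gave 18 calls at 13 positions, and each lost significance in at least 1 of 25 settings; the called regions of the run on chromosome 7 were not followed in this way. The cause of the other changes was not tested.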
